A study of Homo sapiens with 9 samples.

Results

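The integrated stress response factors described here are 10 genes: the transcription factors ATF4, ATF5, DDIT3, CEBPB and CEBPG, the feedback regulators TRIB3 and PPP1R15A, the mTORC1 inhibitors DDIT4 and SESN2, and the stress cofactor NUPR1. They were found by gene name among the 62710 genes of the table, with no threshold on a measured value, from a list drawn up with earlier results of these data known. All 10 were found, and 9 had a mean of at least 10 normalized counts and were tested; NUPR1 was not.

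RNA was sequenced from A375R cells, a human melanoma line that resists PLX4032, a vemurafenib analogue that inhibits mutant BRAF, and that is kept in medium with this drug. Cells received VHL-r at 10 µM or R4VPL3-1 at 10 µM for 2 h, or DMSO alone, with 3 biological repeats of each treatment (9 libraries). The control libraries are titled WT without a dose or a time, and the design text of the series gives their treatment as DMSO. The column labels of their values give 2 h for replicates 2 and 3 and no time for replicate 1. VHL-r is the VHL-binding moiety alone. R4VPL3-1 is the full PROTAC-like molecule, in which this moiety is joined through a linker to a moiety that binds the ubiquitin ligase RNF4, so VHL-r differs from it by lacking the linker and the RNF4-binding moiety. All groups are this resistant line, and no drug-sensitive parent line is among them.

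The integrated stress response starts when a kinase phosphorylates the translation initiation factor eIF2 on its alpha subunit. PERK (EIF2AK3) responds to unfolded protein in the endoplasmic reticulum, GCN2 (EIF2AK4) to amino acid shortage and stalled ribosomes, PKR (EIF2AK2) to double-stranded RNA, and HRI (EIF2AK1) to haem shortage and mitochondrial stress. Most translation then slows, whereas the ATF4 mRNA is translated better through its upstream open reading frames, and ATF4 protein switches on genes for amino acid supply, redox balance and, when stress lasts, cell death. The mRNA levels measured here therefore show the transcripts of this pathway and not the phosphorylation or translation steps at its start.

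ATF4 and its C/EBP partners bind a composite element whose letters are TGATGNAA (the CARE), CREB and ATF dimers bind TGACGTCA (the CRE), AP-1 dimers bind TGANTCA, and hypoxia-inducible factors, which VHL keeps low, bind a core of ACGTG. These letters were searched on both strands of the 250 bases before each RefSeq transcription start (GRCh38.p14) of the 9 members that have a window and none of the sites printed here overlaps another of the motifs. The CARE lay before CEBPG only among the 9, against 3.886% of 27305 genes, and the CRE before PPP1R15A only, against 2.033%. AP-1 letters lay before ATF5 and DDIT3, against 8.057% of genes, and the HRE core before ATF4 and DDIT4, against 21.736%. Neither the endoplasmic reticulum stress element (ERSE), against 0.092% of genes, nor the heat shock element (HSE), against 0.557%, was found before a member. A gene counted where any of its starts had the letters. The CEBPG start at 33373709 and the ATF5 starts at 49929205 and 49930245 had none of these motifs. Nor had the start at 212615018 of ATF3, which is printed below. A match is a string of letters, not a shown binding site, and no match says only that these letters are not in this window. Some windows lie inside the annotated gene rather than upstream of it. Exons of the gene itself (GENCODE 44) fill all 250 bases for ATF4 and for CHAC1, which is printed below. They fill 209 bases for PPP1R15A, 204 for the first ATF5 start and 174 for TRIB3. The printed DDIT3 window holds 0 such bases but lies within the annotated gene.

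The sites before members are printed because these members responded in different ways below, and those before CHAC1 and ATF3, ATF4 target genes described below, are added for comparison with CEBPG. Each is read 5′ to 3′ on the gene's strand, with the motif in capitals. The capitals before CHAC1 read the CARE from the other strand, and those before ATF4 hold the HRE core on both strands.
CEBPG (chr19:33374060-33374089, plus strand, motif 35 to 42 bases before the start): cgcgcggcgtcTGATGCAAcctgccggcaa
CHAC1 (chr15:40953251-40953280, plus strand, motif 202 to 209 bases before the start): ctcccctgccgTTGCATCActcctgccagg
ATF3 (chr1:212565205-212565234, plus strand, motif 184 to 191 bases before the start): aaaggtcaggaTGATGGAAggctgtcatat
PPP1R15A (chr19:48872352-48872381, plus strand, motif 51 to 58 bases before the start): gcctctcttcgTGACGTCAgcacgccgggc
ATF4 (chr22:39520466-39520493, plus strand, motif 77 to 82 bases before the start): gaggagacggtCACGTGgtcgcggcgga
DDIT4 (chr10:72273788-72273814, plus strand, motif 121 to 125 bases before the start): gaacgttgcttACGTGcgcccggagtc
ATF5 (chr19:49928707-49928735, plus strand, motif 182 to 188 bases before the start): ggagagtgctgTGACTCAtgctggactct
The whole window before the DDIT3 start, which holds its AP-1 letters 232 to 238 bases upstream, is shown because DDIT3 was among the members with the largest rise.
DDIT3 (chr12:57520518-57520767, minus strand): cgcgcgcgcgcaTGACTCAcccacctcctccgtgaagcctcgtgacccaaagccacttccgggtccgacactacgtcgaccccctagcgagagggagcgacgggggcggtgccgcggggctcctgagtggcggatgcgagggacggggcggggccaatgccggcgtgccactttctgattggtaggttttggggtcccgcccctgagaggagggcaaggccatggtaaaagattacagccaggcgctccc

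The libraries held between 26435568 and 32085626 reads assigned to genes. The melanocyte lineage factor SOX10 averaged 17550 normalized counts with DMSO, MITF 1722, DCT 1347, S100B 730.3 and PMEL 29.9, whereas TYRP1 averaged 3.48 and MLANA and TYR were listed at 0. Of the markers of dedifferentiated melanoma, AXL averaged 10990, NGFR 1088, EGFR 469 and SOX9 9.94. Markers of leukocytes (PTPRC), endothelium (PECAM1) and epithelium (EPCAM) averaged below 10 in every group, and the keratinocyte gene KRT5 averaged 17.4. SOX10 fell by 1.06 with R4VPL3-1 and fell by 0.79 with VHL-r on the log2 scale, and MITF fell by 0.77 and fell by 0.71. DCT, S100B and PMEL were not called in any comparison, and gave -0.16, -0.19 and -0.03 with R4VPL3-1. NGFR fell by 0.31 and EGFR rose by 0.31 with R4VPL3-1, the latter a call lost without DMSO replicate 2 (adjusted p = 0.0595), R4VPL3-1 replicate 1 (0.0849) or R4VPL3-1 replicate 2 (0.0818), and AXL fell by 0.17 with each compound, calls lost without DMSO replicate 1 (adjusted p = 0.212 and 0.241) among other libraries. Their part in the results below was not tested.

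To ask which members responded to the whole molecule, R4VPL3-1 was compared with DMSO. In this comparison 6 of 9 tested members were called higher at an adjusted p of at most 0.05 (limma on log2 of the normalized count plus 1, Benjamini-Hochberg over 15230 genes) and none lower, where 24.9% of all tested genes were called, 13.1% as higher and 11.8% as lower. The 6 were DDIT3, DDIT4, SESN2, ATF4, PPP1R15A and CEBPB, while ATF5, CEBPG and TRIB3 were not called. The median log2 fold change of the 9 was 0.65, against -0.0063 over all tested genes. Groups did not overlap for 6 of the 9, where 38.0% of all tested genes did not.

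VHL-r, the part of the molecule that binds VHL, was then compared with DMSO. In this comparison 4 members were called higher (SESN2, DDIT3, ATF4 and ATF5) and 1 lower (DDIT4), 5 of 9 where 19.8% of all tested genes were called. The background was 10.3% for higher and 9.51% for lower calls. The median over the members was 0.15, against -0.0045 over all tested genes, and groups did not overlap for 6 of 9, where 34.3% of all tested genes did not.

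The compounds were set against each other at the same dose and time, which asks what the linker and RNF4-binding moiety add. With R4VPL3-1, 5 of 9 members were higher than with VHL-r (DDIT4, DDIT3, PPP1R15A, SESN2 and ATF4), where 1.87% of all tested genes were called, 1.14% as higher and 0.729% as lower. None was called lower. The median over the members was 0.40, against -0.0056 over all tested genes, and groups did not overlap for 6 of 9, where 14.1% of all tested genes did not. The 3 comparisons share libraries, so their values stand side by side and do not check one another.

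**Figure D1:**
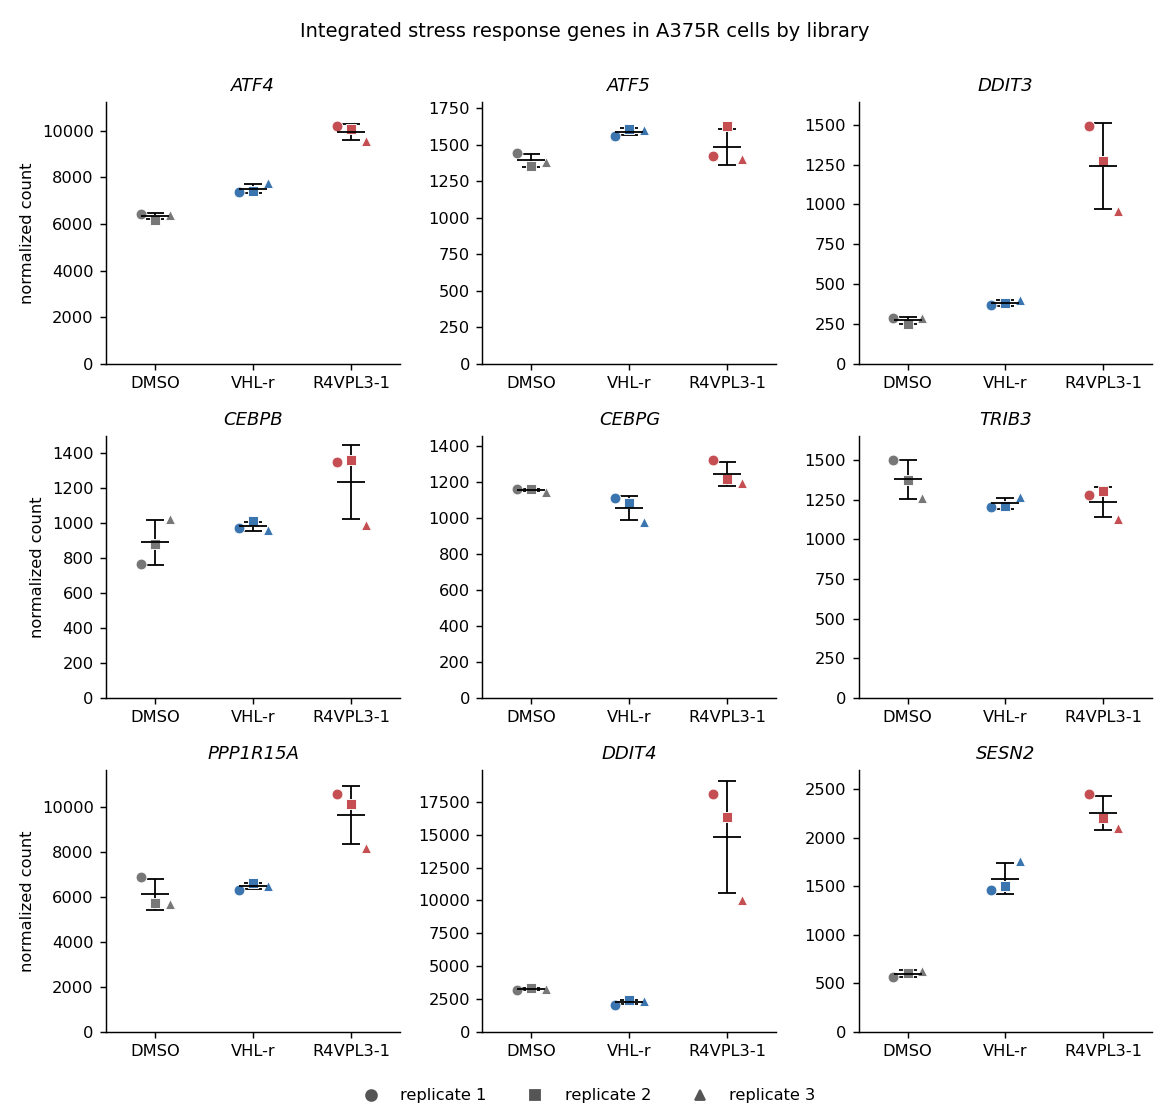
Normalized count of the 9 tested members (vertical axes, each from 0) in the 3 libraries of each treatment; points are libraries, and bars are the mean ± SD. R4VPL3-1 libraries lie above all other libraries for ATF4, DDIT3, CEBPG, PPP1R15A, DDIT4 and SESN2, and DDIT4 is lowest with VHL-r.

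The position of each gene follows GRCh38 as in Ensembl and GENCODE, and values are normalized counts, read counts divided by a size factor for each library. ATF4 (ENSG00000128272, chromosome 22, 39519695 to 39522683, plus strand), the main effector of the response, had 6425, 6186 and 6386 normalized counts in the DMSO libraries. It had 7375, 7428 and 7756 with VHL-r and 10208, 10081 and 9552 with R4VPL3-1. The groups formed 3 separate steps, with every R4VPL3-1 library above every VHL-r library and every VHL-r library above every DMSO library. The means were 6332 ± 128, 7520 ± 207 and 9947 ± 348 (SD, n = 3 each). ATF4 mRNA was thus 1.57-fold higher with R4VPL3-1 than with DMSO (log2 0.65 ± 0.042 SE, adjusted p = 2.27e-10, limma). It was 1.19-fold higher with VHL-r (adjusted p = 0.00018) and 1.32-fold higher with R4VPL3-1 than with VHL-r (adjusted p = 2.62e-06).

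DDIT3 (ENSG00000175197, chromosome 12, 57516588 to 57521737, minus strand) encodes CHOP, a C/EBP family factor that ATF4 induces and that drives death after prolonged stress. Its normalized counts were 289.7, 248.9 and 285 with DMSO, 366.3, 382.4 and 402.5 with VHL-r, and 1492, 1271 and 959.2 with R4VPL3-1. The 3 groups were again separate, and the R4VPL3-1 libraries were the most spread. The means were 274.5 ± 22.3, 383.7 ± 18.2 and 1241 ± 268. DDIT3 was 4.45-fold higher with R4VPL3-1 than with DMSO (log2 2.15 ± 0.114 SE, adjusted p = 9.8e-12). The rise with VHL-r was 1.4-fold (adjusted p = 0.00392), and R4VPL3-1 exceeded VHL-r by 3.18-fold (adjusted p = 3.84e-09).

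ATF5 (ENSG00000169136, chromosome 19, 49928702 to 49933935, plus strand) is a relative of ATF4 whose translation is controlled in a like way, with a role in the mitochondrial stress response. Its counts were 1445, 1354 and 1378 with DMSO, 1559, 1604 and 1602 with VHL-r, and 1425, 1629 and 1404 with R4VPL3-1. The VHL-r libraries lay above the DMSO libraries, while the R4VPL3-1 libraries overlapped both. VHL-r raised ATF5 1.14-fold (adjusted p = 0.0267), a call lost without DMSO replicate 2 (adjusted p = 0.109), DMSO replicate 3 (0.0713), VHL-r replicate 2 (0.0933) or VHL-r replicate 3 (0.0616). R4VPL3-1 against DMSO gave 0.09 on the log2 scale (95% interval -0.03 to 0.21, adjusted p = 0.296), and against VHL-r -0.10 (-0.22 to 0.02, adjusted p = 0.657).

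CEBPB (ENSG00000172216, chromosome 20, 50190830 to 50192668, plus strand), a bZIP factor that pairs with ATF4 and CHOP, had 766.4, 877.6 and 1019 normalized counts with DMSO. It had 972.7, 1007 and 959.7 with VHL-r, and 1347, 1359 and 988.1 with R4VPL3-1. R4VPL3-1 replicates 1 and 2 lay above all other libraries, and replicate 3 lay among the DMSO and VHL-r libraries. CEBPB was 1.38-fold higher with R4VPL3-1 than with DMSO (log2 0.47 ± 0.102 SE, adjusted p = 0.00171). Between the compounds the difference was 0.31 (95% interval 0.10 to 0.53) and was not called (adjusted p = 0.169); without R4VPL3-1 replicate 3 it was 0.47 (adjusted p = 0.00277). VHL-r against DMSO gave 0.15 (-0.06 to 0.37, adjusted p = 0.349).

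CEBPG (ENSG00000153879, chromosome 19, 33373685 to 33382686, plus strand), a partner of ATF4 at CARE sites, varied little. Its counts were 1161, 1161 and 1147 with DMSO, 1110, 1082 and 980.2 with VHL-r, and 1324, 1218 and 1195 with R4VPL3-1. The groups did not overlap in any comparison, with VHL-r lowest and R4VPL3-1 highest. No comparison passed the threshold: 0.11 for R4VPL3-1 (adjusted p = 0.233) and -0.13 for VHL-r (adjusted p = 0.153) against DMSO. The compounds differed by 0.24 (95% interval 0.11 to 0.36, adjusted p = 0.0516), which is close to the threshold, and 10 of the 20 alternative settings called it, edgeR (adjusted p = 0.0394) and DESeq2 (0.0267) among them.

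Of the feedback regulators, PPP1R15A (ENSG00000087074, chromosome 19, 48872212 to 48876059, plus strand) encodes GADD34, which directs a phosphatase to eIF2 alpha and so restores translation. It had 6893, 5715 and 5684 normalized counts with DMSO, 6315, 6603 and 6474 with VHL-r, and 10566, 10121 and 8151 with R4VPL3-1. All R4VPL3-1 libraries were above all others, and the DMSO and VHL-r libraries overlapped. The rise with R4VPL3-1 over DMSO was 1.57-fold (log2 0.65 ± 0.0767 SE, adjusted p = 1.55e-06). VHL-r gave 0.09 (95% interval -0.07 to 0.25, adjusted p = 0.48). R4VPL3-1 exceeded VHL-r by 1.48-fold (adjusted p = 9.54e-05), a call that limma with robust variances put just past the threshold (adjusted p = 0.0509).

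TRIB3 (ENSG00000101255, chromosome 20, 362835 to 397559, plus strand), a pseudokinase that CHOP and ATF4 induce and that damps ATF4 activity, was not called in any comparison. Its counts were 1503, 1373 and 1260 with DMSO, 1207, 1213 and 1269 with VHL-r, and 1278, 1305 and 1127 with R4VPL3-1, and the groups overlapped. Its log2 difference from DMSO was -0.16 with R4VPL3-1 (95% interval -0.30 to -0.01, adjusted p = 0.105) and -0.16 with VHL-r (-0.30 to -0.02, adjusted p = 0.107). Without DMSO replicate 3 both were -0.22 and were called (adjusted p = 0.0313 and 0.0328). Between the compounds the difference was 0.0059 (-0.14 to 0.15, adjusted p = 0.993).

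DDIT4 (ENSG00000168209, chromosome 10, 72273919 to 72276036, plus strand) encodes REDD1, an inhibitor of the growth kinase complex mTORC1 that is induced by ATF4, by hypoxia and by glucocorticoids. Its normalized counts were 3215, 3355 and 3226 with DMSO, fell to 2073, 2392 and 2318 with VHL-r, and were 18120, 16346 and 10017 with R4VPL3-1. The groups were separate and in opposite directions from DMSO, and R4VPL3-1 replicate 3 was well below the other two. The means were 3265 ± 78, 2261 ± 167 and 14830 ± 4260. DDIT4 was 4.4-fold higher with R4VPL3-1 than with DMSO (log2 2.14 ± 0.128 SE, adjusted p = 7.26e-11) and 1.45-fold lower with VHL-r (log2 -0.53 ± 0.128 SE, adjusted p = 0.00477). The robust option ended the VHL-r call (adjusted p = 0.158).

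The compounds differed most in DDIT4 among the members, 6.36-fold (log2 2.67, 95% interval 2.40 to 2.94, adjusted p = 1.15e-11). Without R4VPL3-1 replicate 3 this difference was 2.93. The order of the members' levels per length differed between treatments. Per 1000 exon bases, ATF4 was the most abundant member with DMSO (mean 2420 normalized counts), followed by PPP1R15A (1780) and DDIT4 (1540), and the libraries of these 3 did not overlap. With R4VPL3-1 DDIT4 stood first at 7000 (4730 to 8560), above ATF4 at 3810 (3660 to 3910) and PPP1R15A at 2800 (2370 to 3080), again without overlap.

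Lower in the order, CEBPB and ATF5 did not differ beyond their spread with DMSO, at 483 (417 to 554) and 481 (468 to 500) per 1000 exon bases, and TRIB3 at 419 (383 to 457) overlapped CEBPB. CEBPG (285), DDIT3 (210) and SESN2 (173) followed, each separate from its neighbour. With R4VPL3-1, DDIT3 came next at 949 (734 to 1140), where its lowest library lay just under the highest of CEBPB (739). CEBPB (670), SESN2 (652) and ATF5 (514) followed; the libraries of CEBPB overlapped those of both, and TRIB3 (376) and CEBPG (307) were the lowest, with CEBPG wholly below TRIB3.

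SESN2 (ENSG00000130766, chromosome 1, 28259518 to 28282491, plus strand) encodes a sestrin, which senses leucine and restrains mTORC1. It had 564.8, 604.1 and 631.8 normalized counts with DMSO, 1467, 1504 and 1763 with VHL-r, and 2454, 2209 and 2106 with R4VPL3-1. All 3 groups were separate. SESN2 rose 3.75-fold with R4VPL3-1 (log2 1.91 ± 0.0724 SE, adjusted p = 7.46e-14) and 2.62-fold with VHL-r (log2 1.39, adjusted p = 2.43e-11), the largest response of a member to VHL-r. The step from VHL-r to R4VPL3-1 was 1.43-fold (log2 0.52, adjusted p = 0.000134).

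NUPR1 (ENSG00000176046, chromosome 16, 28532708 to 28539008, minus strand), a small chromatin-associated stress protein, was listed at 0 in 7 libraries. VHL-r replicate 1 held 1 read and R4VPL3-1 replicate 3 held 3 reads, so that no difference was detectable at this depth. Another gene covers 16.5% of its exon bases on the same strand, and 14.47% of its 100-base windows occur elsewhere in the transcripts, so reads may have been lost in counting. Among the other members the exon overlap was 8.03% for DDIT3, 2.56% for ATF5 and 0 for the rest. The share of windows that occur elsewhere was 2.58% for ATF4, 0.38% for DDIT3 and 0 for the rest.

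**Figure D2:**
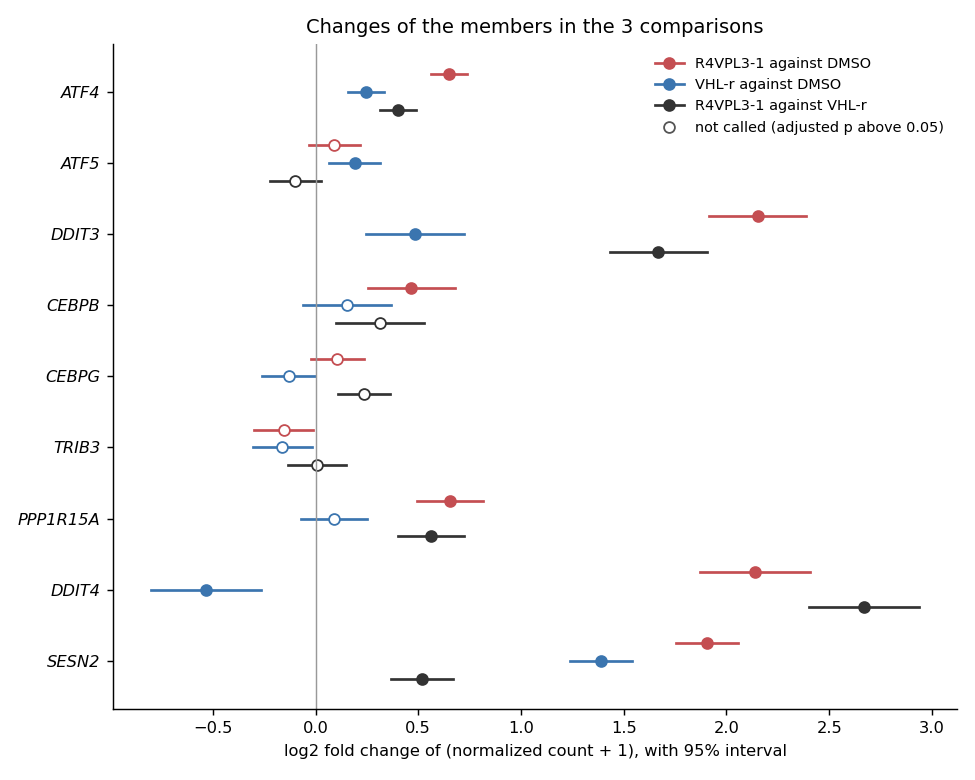
Log2 fold change of normalized count plus 1 (horizontal axis) with its 95% interval for the 9 tested members in each comparison; filled points were called at an adjusted p of at most 0.05. DDIT3, DDIT4 and SESN2 lie near 2 with R4VPL3-1 against DMSO, and only DDIT4 is called below 0, with VHL-r.

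Within treatments, the place of each library was counted over the members. R4VPL3-1 replicate 3 was the lowest of its group for 9 of 9 tested members, where it was the lowest for 38.0% of all tested genes, and VHL-r replicate 1 was the lowest for 7 of 9, against 35.9%. Leaving out R4VPL3-1 replicate 3 moved the rise over DMSO from 2.15 to 2.33 for DDIT3, from 2.14 to 2.40 for DDIT4, from 0.65 to 0.77 for PPP1R15A and from 0.65 to 0.68 for ATF4, all on the log2 scale.

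Over the 9 libraries, the genes whose log2 level was most like that of ATF4 were INSIG1 (Pearson r = 0.995), CHAC1 (0.99), OSGIN1 (0.989), CLK1 (0.988) and DUSP1 (0.985), outside the members. INSIG1, which holds back sterol synthesis, averaged 883.1, 1402 and 3062 normalized counts with DMSO, VHL-r and R4VPL3-1, so that its means had the same order. For DDIT3 they included DNAJB1 (0.996), ANKRD37 (0.995), BAG3 (0.995) and OSGIN1 (0.994). DNAJB1, a heat shock co-chaperone, averaged 6580, 10360 and 48180. Among members, r with ATF4 ran from -0.456 for TRIB3 to 0.982 for DDIT3. These values describe libraries that fall into 3 treatments and share their depth and normalization, and no test was made on them.

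The other ATF4 target genes, a list of 51, were read by role to see whether they moved as the members did; 49 were tested. Against DMSO, R4VPL3-1 raised 15 and lowered 3, VHL-r raised 8 and lowered 1, and R4VPL3-1 exceeded VHL-r for 7 and was below it for none. As shares of 49 these stand beside the 24.9%, 19.8% and 1.87% of all tested genes called. Their median log2 fold changes were 0.04, -0.0005 and 0.03, close to those of all tested genes.

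Among 15 tested genes of stress and death output, 7 were higher and 1 lower with R4VPL3-1 against DMSO, 5 higher and 1 lower with VHL-r, and 5 higher with R4VPL3-1 than with VHL-r. The lower gene was STC2 with both compounds, at -0.49 and -0.745 on the log2 scale (limma, adjusted p = 0.00199 and 3.81e-05). Of all tested genes, 13.1% were called higher and 11.8% lower with R4VPL3-1 against DMSO, and 10.3% and 9.51% with VHL-r. Between the compounds, 1.14% were called higher with R4VPL3-1. CHAC1, which breaks down glutathione, had 146.2, 114.1 and 109.5 normalized counts with DMSO, 205.2, 253.2 and 248.9 with VHL-r, and 981.4, 789 and 550.3 with R4VPL3-1. All 3 groups were separate. CHAC1 was 6.11-fold higher with R4VPL3-1 than with DMSO (adjusted p = 7.26e-11), 1.91-fold higher with VHL-r (adjusted p = 0.000158), and 3.2-fold higher with R4VPL3-1 than with VHL-r (adjusted p = 5.74e-07).

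ATF3, a stress factor that ATF4 induces, had 1071, 657.2 and 655.1 normalized counts with DMSO, 818.6, 834.1 and 844 with VHL-r, and 3891, 2855 and 2130 with R4VPL3-1. DMSO replicate 1 lay above the VHL-r libraries, and all R4VPL3-1 libraries lay above both. ATF3 was 3.71-fold higher with R4VPL3-1 than with DMSO (adjusted p = 1.8e-08) and 3.45-fold higher than with VHL-r (adjusted p = 3.86e-07), whereas VHL-r gave 0.11 on the log2 scale (95% interval -0.23 to 0.45, adjusted p = 0.723).

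HERPUD1, which serves the degradation of misfolded endoplasmic reticulum proteins, averaged 1350, 2718 and 3817 normalized counts with DMSO, VHL-r and R4VPL3-1. It was 2.83-fold higher with R4VPL3-1 (adjusted p = 1.2e-13), 2.01-fold higher with VHL-r (adjusted p = 1.45e-10) and 1.41-fold higher between the compounds (adjusted p = 2.36e-05). KLHL24, a ubiquitin ligase adaptor, averaged 204.7, 440.7 and 492.1, with 1.27 and 1.13 on the log2 scale for R4VPL3-1 and VHL-r against DMSO (adjusted p = 3.28e-07 and 2.69e-06). Between the compounds KLHL24 differed by 0.15 (95% interval -0.13 to 0.43, adjusted p = 0.842).

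Genes of amino acid supply were read next. Among 13 tested genes of amino acid synthesis, 4, 2 and 1 were higher in R4VPL3-1 against DMSO, VHL-r against DMSO and R4VPL3-1 against VHL-r, where 13.1%, 10.3% and 1.14% of all tested genes were called higher, and none was lower. CTH, which makes cysteine from cystathionine, was in each: its means were 151.4, 254.4 and 405.9 normalized counts with DMSO, VHL-r and R4VPL3-1, a rise of 2.68-fold with R4VPL3-1 (adjusted p = 8.64e-09) and 1.69-fold with VHL-r (adjusted p = 6.48e-05). The step between the compounds was 1.59-fold (adjusted p = 0.00159). Of the 4 calls with R4VPL3-1, those of PCK2 and ALDH1L2 were lost in several alternatives, among them without R4VPL3-1 replicate 1 (adjusted p = 0.205 and 0.16). Of 8 tested transporters, R4VPL3-1 raised 4, among them SLC38A2 (1.24-fold, adjusted p = 1.56e-05), and lowered 2, where 11.8% of all tested genes were called lower. The higher call of SLC7A11 was lost without R4VPL3-1 replicate 1 (adjusted p = 0.121). That of SLC1A5 was lost without DMSO replicate 2 or 3 (0.0812 and 0.0676) or R4VPL3-1 replicate 2 (0.103). The lower call of SLC7A5 was lost with DESeq2 (adjusted p = 0.19) among other settings. The other lower call, SLC1A4 (log2 -0.20, limma, adjusted p = 0.0047), was not lost in any alternative. VHL-r raised 1, SLC1A5, a call lost without DMSO replicate 2 (adjusted p = 0.0603) or VHL-r replicate 3 (0.0526). Between the compounds, 1 transporter was higher with R4VPL3-1 than with VHL-r.

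None of the 13 tested genes of tRNA charging and export was called in any comparison. Of all tested genes, 24.9% were called with R4VPL3-1 and 19.8% with VHL-r against DMSO, and 1.87% between the compounds. The log2 fold changes of the 13 lay between -0.09 and 0.07. ASNS, the asparagine synthetase that is a standard reporter of ATF4 activity, was listed at 0 in all libraries. Another gene covers 49.33% of its exon bases on the same strand, and its part in the listed 0 was not tested. FGF21 was also listed at 0.

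**Figure D3:**
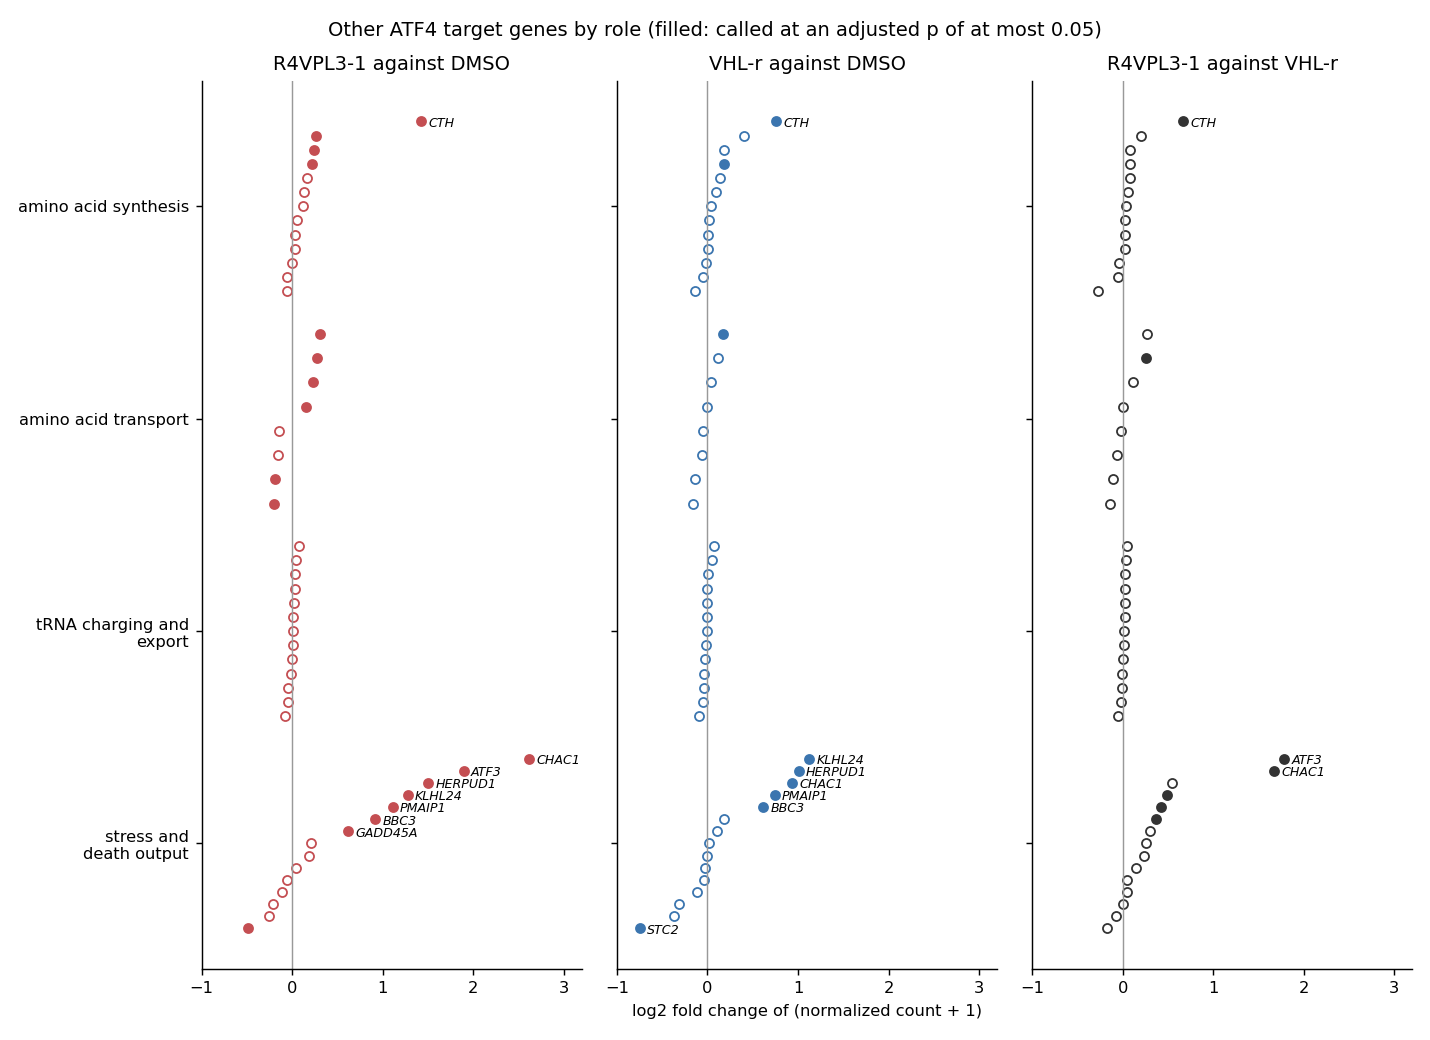
Log2 fold change of normalized count plus 1 (horizontal axis) of the 49 tested ATF4 target genes outside the members, by role, in the 3 comparisons; filled points were called and named where past 0.6 in size. Stress and death genes spread furthest to the right, and the tRNA genes lie on 0.

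Upstream of ATF4, 20 of 21 genes were tested. R4VPL3-1 raised 2 and lowered 1 against DMSO, and VHL-r raised 3 and lowered 1, beside 24.9% and 19.8% of all tested genes called. EIF2AK3 was the only one of the 4 eIF2 alpha kinases called higher: its means were 578.5 ± 5.93, 780.5 ± 23.1 and 829.1 ± 9.39 normalized counts with DMSO, VHL-r and R4VPL3-1. It rose 1.43-fold with R4VPL3-1 (adjusted p = 1.84e-06) and 1.35-fold with VHL-r (adjusted p = 2.76e-05). EIF2AK4 fell by 0.15 and fell by 0.13 (adjusted p = 0.0134 and 0.0395). Both calls were lost without DMSO replicate 1 (adjusted p = 0.0735 and 0.169) or DMSO replicate 2 (0.0588 and 0.131). The R4VPL3-1 call was also lost without R4VPL3-1 replicate 1 (0.068), and the VHL-r call without any 1 VHL-r library (0.0751, 0.132 and 0.0585), without R4VPL3-1 replicate 2 (0.0511) or with no filter (0.0838). EIF2AK1 and EIF2AK2 were not called, at 0.03 and -0.12 with R4VPL3-1.

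DNAJC3, an endoplasmic reticulum chaperone that inhibits PERK, rose by 0.17 with R4VPL3-1 (adjusted p = 0.00903) and 0.29 with VHL-r (adjusted p = 0.000125). PPP1R15B, the constitutive partner of the eIF2 alpha phosphatase, rose by 0.27 with VHL-r (adjusted p = 0.00058), and gave 0.08 with R4VPL3-1 (adjusted p = 0.294). The genes of eIF2 and of its exchange factor eIF2B, 8 in all, were not called in any comparison. Between the compounds limma called 0 of the 20, where 1.87% of all tested genes were called. DNAJC3 and PPP1R15B, both lower with R4VPL3-1, were the 2 at an unadjusted p under 0.05. Of the other tools, edgeR called 0 and DESeq2 called 1, PPP1R15B. OMA1, which relays mitochondrial stress to HRI, was listed at 0. On the same strand, another gene covers 6.91% of the OMA1 exon bases, and the part of this overlap in the listed 0 was not tested.

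Within the families of the members, 14 relatives were read and 10 were tested. R4VPL3-1 raised 3 and lowered 3 against DMSO, VHL-r raised 4 and lowered 2, and 2 were lower with R4VPL3-1 than with VHL-r, where 24.9%, 19.8% and 1.87% of all tested genes were called. The Tribbles genes parted from each other. TRIB1 had 893.5, 860.9 and 938 normalized counts with DMSO, 1161, 1099 and 1151 with VHL-r, and 411.8, 463.6 and 529.9 with R4VPL3-1, 3 groups without overlap. It was lower with R4VPL3-1 than with DMSO (log2 -0.94, adjusted p = 9.98e-09) and higher with VHL-r (0.34, adjusted p = 0.00306), and the compounds differed by -1.28 (adjusted p = 6.57e-10).

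TRIB2 had 2178, 2273 and 2241 normalized counts with DMSO, 1085, 1158 and 1092 with VHL-r, and 795.6, 853.6 and 870.4 with R4VPL3-1. It was 0.377 times its DMSO level with R4VPL3-1 (log2 -1.41, adjusted p = 1.2e-13) and 0.498 times with VHL-r (adjusted p = 6.05e-11), and the compounds differed by -0.40 (adjusted p = 0.000119). TRIB3, the member of this family, lay within 0.17 of DMSO on the log2 scale with both.

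SESN3, a sestrin under FoxO control, had 133.5, 202.7 and 281.9 normalized counts with DMSO, 823.6, 812 and 845 with VHL-r, and 863.7, 752.1 and 915.4 with R4VPL3-1. The compound libraries overlapped each other and lay far above DMSO. SESN3 rose by 2.09 with R4VPL3-1 and 2.06 with VHL-r (adjusted p = 3.06e-09 and 6.47e-09), and the compounds differed by 0.02 (95% interval -0.31 to 0.36, adjusted p = 0.988). SESN1, a p53 target, rose by 0.42 and 0.31 (adjusted p = 0.000369 and 0.00614). All 3 sestrins thus rose with both compounds, and only SESN2 of them was called between the compounds.

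CEBPA, a differentiation factor of the C/EBP family, rose from a low mean of 37.05 normalized counts with DMSO to 63.7 with R4VPL3-1 and 68.41 with VHL-r (adjusted p = 0.00362 and 0.00184). ATF2 fell by 0.19 and fell by 0.26 on the log2 scale (adjusted p = 0.0348 and 0.0065). The R4VPL3-1 call was lost without DMSO replicate 1, 2 or 3 (adjusted p = 0.0581, 0.118 and 0.0762) or R4VPL3-1 replicate 1 or 2 (0.135 and 0.0803), with DESeq2 (0.0566), upper-quartile rescaling (0.0588) and no filter (0.0502). CEBPE, ATF7, DDIT4L and NUPR2 were below the filter. For ATF7, another gene covers 16.08% of the exon bases on the same strand, and the part of this overlap in its low values was not tested.

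**Figure D4:**
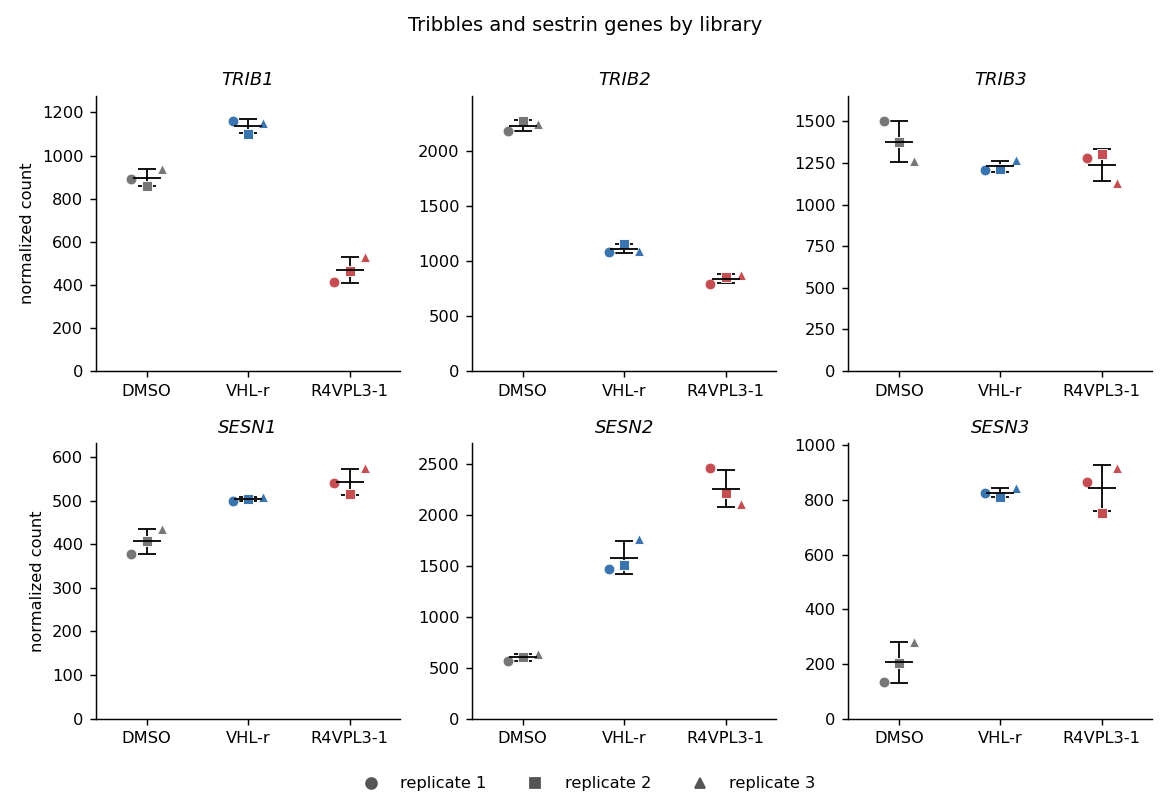
Normalized count (vertical axes, each from 0) of the Tribbles and sestrin genes in the 3 libraries of each treatment; points are libraries, and bars are the mean ± SD. TRIB1 and TRIB2 are lowest with R4VPL3-1, TRIB3 overlaps across treatments, and SESN2 and SESN3 are higher with both compounds.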

How the data were processed

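Poly(A) RNA of 9 libraries, 3 biological repeats of each of 3 treatments, was sequenced as single reads of 100 bases. The authors aligned reads to GRCh38 with STAR, counted them by gene and strand with htseq-count, and divided them by DESeq2 (1.36.0) size factors; the deposited normalized counts (a signal with 2 decimals) are the only values used. htseq-count drops reads on exons shared by genes of the same strand, which lowers such genes. Whole reads were recovered from the step that 1 read makes in each library: 100.0% of values above 0 came out whole (tolerance 0.1 reads). Totals lay between 26435568 and 32085626 reads per library. Over the 9 libraries NUPR1 held 4 reads and DDIT3, the next lowest member, 5748. Counting error is relatively larger for genes with fewer reads.

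Values were tested as log2(value + 1) with limma (3.58.1, R 4.3.3; trend option) over the 15230 genes whose mean reached 10, in a single-factor fit of all 9 libraries without a block, and a gene counted as called where its p, adjusted by Benjamini-Hochberg, did not exceed 0.05. The pseudocount understates changes of low genes. Intervals are 95% intervals of that fit, not adjusted. A single gene tested by permutation, 3 libraries against 3, could not go below an exact two-sided p of 0.1. On data simulated for R4VPL3-1 against DMSO, 169 of 197 changed genes among 15144 were recovered, with 3 false calls. Of the genes changed by 0.5 on the log2 scale, 49 of 69 were recovered. For R4VPL3-1 against VHL-r, 166 of 197 were recovered, with 9 false calls. Recovery of differences below 0.5 was not tested, nor was a share of changed genes as high as the 24.9% called for R4VPL3-1 against DMSO.

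The members and lists were chosen with earlier results of these data known. Named genes were all members, ATF3, CHAC1, ASNS, the eIF2 alpha kinases, up to 4 called genes per list and comparison with the largest change and no overlap, and the 5 genes most like ATF4 and DDIT3, of which 1 is not reported here; SLC38A2, SESN1, ATF2, OMA1, FGF21 and the relatives under the filter were added after their values were seen. Alternatives were pseudocounts of 0.1 and 5, a mean minimum of 50 or none, TMM and upper-quartile rescaling, the robust option, only the libraries compared, edgeR (4.0.16) or DESeq2 (1.42.0) on the recovered reads, a block for the replicate number, and leaving out each library. Windows and sites came from RefSeq. All listed genes matched GENCODE 44 by identifier, with the same coordinates.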

Additional observations from a re-analysis of the deposited data

Results flagged for a closer look

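DDIT4 and TRIB1 moved in opposite directions from DMSO with the 2 compounds. They were picked from the members and lists because all 3 comparisons were called, with opposite signs against DMSO. The values below restate this choice and are not separate evidence for it. For DDIT4, limma with the robust option ended the call with VHL-r (adjusted p = 0.158). DDIT4 was higher with R4VPL3-1 in 3 of 3 libraries and lower with VHL-r in 3 of 3, and the compounds differed by 2.67 on the log2 scale in the direct comparison (limma, adjusted p = 1.15e-11). TRIB1 was lower with R4VPL3-1 in 3 of 3 libraries and higher with VHL-r in 3 of 3, and the compounds differed by -1.28 (adjusted p = 6.57e-10).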

How the results depend on the processing

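Over 540 alternative values of 27 member results, 517 kept direction and side of the threshold, 6 lost the call, 13 gained it and 4 turned direction. The 4 were those of TRIB3 between the compounds, whose difference of 0.0059 ran from -0.0344 to 0.0713 when a library was left out (-0.0075 and -0.0036 without VHL-r replicates 1 and 2, -0.0193 and -0.0344 without R4VPL3-1 replicates 1 and 2). Leaving out 1 library gave 6 to 7 members called for R4VPL3-1 against DMSO, 4 to 5 for VHL-r against DMSO and 5 to 7 between the compounds. Upstream genes called for R4VPL3-1 against DMSO, 3 in all, ran from 2 to 5, with 5 without VHL-r replicate 1, and between the compounds from 0 to 1; DESeq2 called 1 there. The causes were not tested.

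The replicate numbers were not used to pair libraries, since the criterion, a correlation of deviations over 0.1 in every same-numbered pair, was not met: it ran from -0.006 to 0.121, over 0.1 in 2 of 9 pairs. In 12 of 18 cases, not all, the best match in another treatment carried the same number, and the third principal component set replicate 3 (10.3 to 16.2) apart from replicates 1 and 2 (-12.6 to -2.5) in each treatment, so a shared replicate effect may be present. The block raised calls over all genes from 3792 to 4241 for R4VPL3-1 against DMSO. With a replicate block, the calls were 14 in place of 9 for the other ATF4 target genes with VHL-r, 5 in place of 3 for upstream genes with R4VPL3-1, 1 in place of 0 for upstream genes between the compounds, and 6, 5 and 6 for the members. With 3 libraries each, differences smaller than the spread, as for TRIB3 between the compounds, could not be resolved. NUPR1 held too few reads for a test, and low depth, counting loss and lack of expression cannot be told apart there.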
